A study of Mus musculus with 4 samples.

Results

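The genes described here are the 10 *Hox* genes of the mouse HoxA cluster from *Hoxa2* to *Hoxa13* (*Hoxa2*, *Hoxa3*, *Hoxa4*, *Hoxa5*, *Hoxa6*, *Hoxa7*, *Hoxa9*, *Hoxa10*, *Hoxa11* and *Hoxa13*). They were chosen by name and position in the cluster, and are 10 of the 23537 genes counted. RNA-seq was performed on primary mouse embryonic fibroblasts (MEFs) of the strain C57BL/6, isolated from embryos at day 12.5 post coitum and harvested from subconfluent cultures, to ask whether the absence of the methyl-CpG binding protein and thymine DNA glycosylase MBD4 affects gene expression. The libraries were made from total RNA depleted of ribosomal RNA, with 2 libraries from *Mbd4*-/- cells (KO) and 2 from *Mbd4*+/+ cells (WT). The sources used here do not say how many embryos or cultures lie behind each library, and the p-values therefore reflect the spread between libraries, which may be technical. A difference in whole cultures can reflect fewer cells that express a gene or less RNA per cell, and these cannot be told apart here.

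*Hox* genes encode homeodomain transcription factors that give cells their position along the body axis. Within a cluster their order on the chromosome matches the order in which they are activated during development and their limits of expression from head to tail, so that the genes at the 3′ end act in the hindbrain and neck and those at the 5′ end in the lumbar region, limbs and genital tract. Fibroblasts keep much of this positional pattern in culture. Polycomb group proteins keep the inactive genes of a cluster silent, and complexes of the MLL family keep the active ones on.

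The 10 genes lie on the minus strand of chromosome 6, between 52112350 and 52210874 of the mm9 build, a span of 98.5 kb. *Mbd4* itself is on the same chromosome, 63.6 Mb further on. The 250 bases upstream of the RefSeq start are given for the 4 genes at the 5′ end of the cluster, where the differences were largest, and for *Hoxa5*, which did not pass the test. CpG dinucleotides, the sites of DNA methylation that MBD4 binds, are in capitals, all sequences read 5′ to 3′ on the minus strand, and the coordinates are those of GRCm38.p6.
*Hoxa13* (chr6:52260881-52261130): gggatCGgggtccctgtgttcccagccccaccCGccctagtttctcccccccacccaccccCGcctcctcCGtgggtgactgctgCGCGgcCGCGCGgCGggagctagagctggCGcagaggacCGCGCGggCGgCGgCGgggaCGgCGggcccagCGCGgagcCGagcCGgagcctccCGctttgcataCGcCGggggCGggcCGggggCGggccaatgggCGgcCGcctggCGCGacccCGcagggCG
*Hoxa11* (chr6:52245811-52246060): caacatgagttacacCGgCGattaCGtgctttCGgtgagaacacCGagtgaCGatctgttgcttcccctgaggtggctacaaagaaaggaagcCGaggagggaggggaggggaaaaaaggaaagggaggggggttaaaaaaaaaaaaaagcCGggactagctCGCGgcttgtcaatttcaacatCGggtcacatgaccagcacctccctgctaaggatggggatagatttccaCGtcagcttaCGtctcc
*Hoxa10* (chr6:52234940-52235189): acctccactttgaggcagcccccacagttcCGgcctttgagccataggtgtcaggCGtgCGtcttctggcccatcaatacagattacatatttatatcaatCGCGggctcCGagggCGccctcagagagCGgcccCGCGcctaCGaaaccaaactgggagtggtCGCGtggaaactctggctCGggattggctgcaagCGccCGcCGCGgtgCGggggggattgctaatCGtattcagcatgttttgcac
*Hoxa9* (chr6:52227371-52227620): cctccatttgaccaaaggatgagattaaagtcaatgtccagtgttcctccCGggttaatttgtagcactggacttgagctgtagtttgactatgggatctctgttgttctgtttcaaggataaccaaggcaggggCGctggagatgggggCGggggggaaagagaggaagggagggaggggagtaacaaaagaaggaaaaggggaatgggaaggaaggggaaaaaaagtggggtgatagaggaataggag
*Hoxa5* (chr6:52204588-52204837): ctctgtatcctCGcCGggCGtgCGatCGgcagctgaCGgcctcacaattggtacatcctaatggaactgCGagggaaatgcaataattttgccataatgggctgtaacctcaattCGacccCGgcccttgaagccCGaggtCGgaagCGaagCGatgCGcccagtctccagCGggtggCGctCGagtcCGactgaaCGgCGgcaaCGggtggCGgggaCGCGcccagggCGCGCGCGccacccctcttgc

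RefSeq promoter windows were found for 9 of the 10 genes, and *Hoxa4* had no entry. The motif counted was CG, which reads the same on both strands and cannot overlap itself. The *Hoxa13* window held 35 CpGs, a number reached by 3.0% of the 32841 windows of the same length. The *Hoxa5* window held 28, reached by 7.6% of the windows. The *Hoxa11* window held 13 (31.5% of windows) and the *Hoxa9* window 3 (71.0%). *Hoxa10* has a pair of RefSeq starts, with 20 CpGs before the one shown (18%) and 7 before the other (46.3%). Windows of the 4 genes with the largest rises thus ranged from 3 to 35 CpGs. Those of the genes not shown held 24 for *Hoxa6*, 18 for *Hoxa3*, 7 for *Hoxa7* and 6 for *Hoxa2*. Of the genes with a window, *Hoxa3* and *Hoxa5* did not pass the test. Whether the number of CpGs in these 250 bases is related to the rises was not tested. Methylation at these windows was not analysed here.

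The libraries held 45223089 and 39108275 counts in KO and 47567835 and 42796997 in WT, and replicates correlated at 0.998 and 0.997 on log2(CPM + 0.5) across genes, where CPM is a count scaled by the size of its library, against 0.943 to 0.945 between genotypes. Of the 15538 genes left by the filter on low counts, 34.3% were higher and 32.5% lower in KO at an adjusted p of 0.05 (edgeR quasi-likelihood test), and the median log2 fold change was 0.02. *Mbd4*, which checks the labels, had 373 and 302 counts in KO and 663 and 630 in WT, with a log2 fold change of -0.99 (SE 0.11, edgeR adjusted p = 2.8e-06). These counts cover the whole gene and do not separate the disrupted part from the rest.

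All 10 HoxA genes passed the filter. At an adjusted p of 0.05, 8 of the 10 were higher in KO (background 34.3%), 0 were lower and 2, *Hoxa3* and *Hoxa5*, did not pass. None was lower at an unadjusted p under 0.05 either, in edgeR, DESeq2 or limma-voom. Under stricter limits, 0.01 for the adjusted p and 2 for the size of the log2 fold change, 4 were higher (background 5.79%) and 0 lower (3.15%). Both KO libraries were above both WT libraries for 8 of the 10 (background 43.0%) and below them for 0 (39.8%). *Hoxa9*, *Hoxa11* and *Hoxa13* had fewer than 10 counts in both WT libraries and passed the filter through their KO libraries only. The median log2 fold change of the 10 was 1.16, and it differed along the cluster, with 0.30 for *Hoxa2* and *Hoxa3*, 0.75 for *Hoxa4* to *Hoxa7* and 5.77 for *Hoxa9* to *Hoxa13*.

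**Figure D1:**
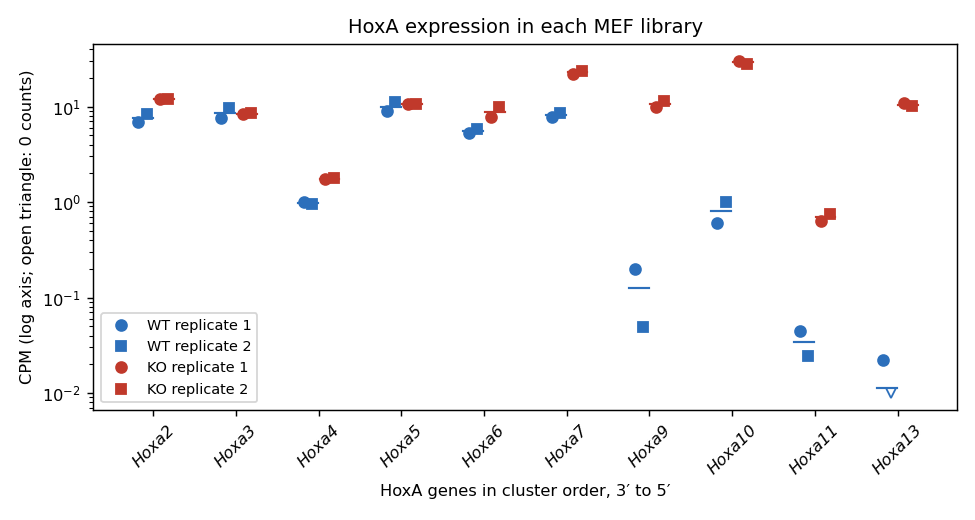
Normalised level (CPM, log axis; an open triangle marks 0 counts, horizontal lines the means) of the 10 HoxA genes in each library, in the order of the genes on the chromosome, with KO and WT libraries as separate points. *Hoxa9* to *Hoxa13* stand far apart between the genotypes, whereas the points of *Hoxa3* and *Hoxa5* overlap.

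The genes at the 5′ end showed the largest differences. *Hoxa13*, a factor for the digits, genital tubercle and hindgut, had 516 and 415 counts in KO and 1 and 0 in WT. Its normalised level was 10.5 ± 0.557 CPM in KO and 0.0112 ± 0.0158 in WT (mean ± SD, n = 2 each). The count ratio was 900, with an exact 95% counting interval of 161 to 35568. *Hoxa13* was thus well expressed in both KO libraries and practically not detected in either WT library, with a fitted log2 fold change of 9.49 (SE 0.36, edgeR adjusted p = 7.6e-11). The fitted value rests on a single WT count: without WT replicate 2 it was 8.67, and without WT replicate 1 the remaining WT library had 0 counts. The edgeR SE of 0.36 does not show this limit, and DESeq2 gave 9.79 with an SE of 1.44.

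*Hoxa11*, which patterns the forearm and lower leg and the kidney, was the least abundant of the cluster in KO. It had 30 and 31 counts in KO and 2 and 1 in WT, or 0.692 ± 0.0855 and 0.0345 ± 0.0143 CPM. The count ratio was 19.6 (95% counting interval 6.41 to 97.9). The groups did not overlap, and the log2 fold change was 4.19 (SE 0.59, edgeR adjusted p = 2.6e-05). The antisense gene *Hoxa11as*, on the opposite strand, had 36 and 29 counts in KO and 3 and 2 in WT, and the sources do not say whether the counting used strand, so reads of both genes may not be fully separated.

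*Hoxa10*, known for its part in the lumbar vertebrae and the uterus, had the largest count of the cluster in KO. It had 1439 and 1144 counts in KO and 27 and 41 in WT, or 29 ± 1.78 and 0.802 ± 0.281 CPM. This is a 36.4-fold difference (log2 fold change 5.19, SE 0.16, edgeR adjusted p = 1.3e-11). The gene overlaps no other annotated gene, and its WT counts were above the filter limit, so that it was tested under every alternative tried. It was called under each of them.

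*Hoxa9*, a factor of the posterior axis and of blood progenitors, had 466 and 476 counts in KO and 9 and 2 in WT. The levels were 10.7 ± 1.23 CPM in KO and 0.125 ± 0.108 in WT. Both KO libraries lay far above both WT libraries, an 81.4-fold difference (log2 fold change 6.35, SE 0.30, edgeR adjusted p = 5.4e-10). The size depended on which WT library was kept, with a log2 fold change of 7.68 without WT replicate 1 and 5.67 without WT replicate 2.

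Within *Hoxa9* the annotation places the row *9930038K12Rik*, on the same strand, which covers the locus of the microRNA gene *Mir196b*. This row had 69 and 60 counts in KO and 1 and 0 in WT, a ratio of 125 (95% counting interval 22 to 4961), and it shares part of its sequence with *Hoxa9*. The mature microRNA of this locus is known to target *Hox* transcripts and is shown for its seed, bases 2 to 8 in capitals (RefSeq, GRCm38.p6, chr6:52230129-52230150, minus strand, 22 bases). Mature microRNAs were not measured in these libraries.
mmu-miR-196b-5p: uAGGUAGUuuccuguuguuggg

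**Figure D2:**
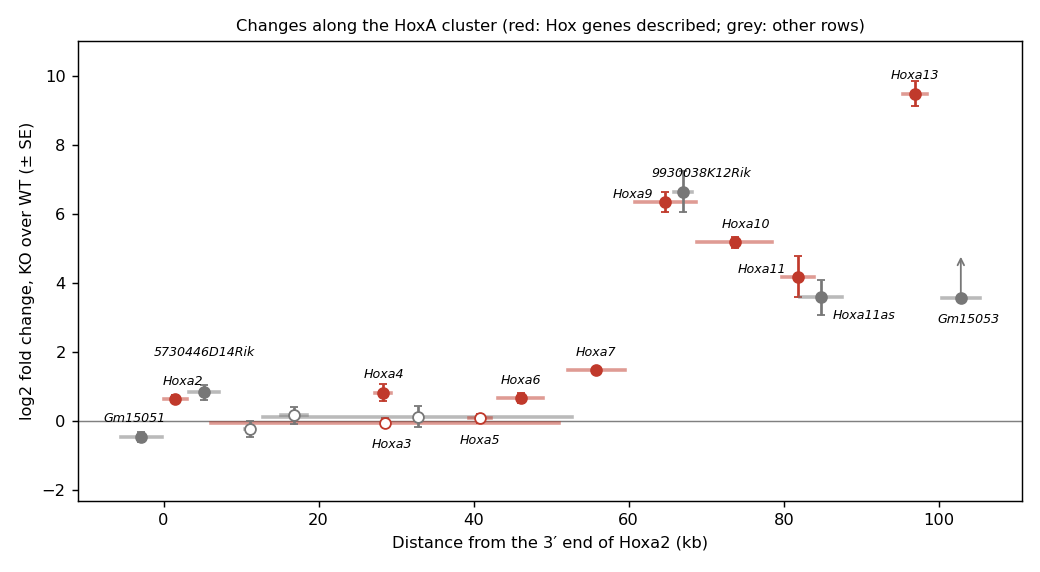
Log2 fold change (KO over WT, ± SE) of tested rows in and beside the span from *Hoxa2* to *Hoxa13* against its distance in kb from the 3′ end of *Hoxa2*, with the HoxA genes in red, other rows in grey, open symbols for rows not past an adjusted p of 0.05 and an arrow for a lower bound. The HoxA values lie between -0.04 and 0.83 from *Hoxa2* to *Hoxa6*, reach 1.48 at *Hoxa7* and lie at 4.19 or above for *Hoxa9* to *Hoxa13*. The value of *Hoxa13* rests on 1 WT count, which its SE does not show.

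The central genes changed less. *Hoxa7*, which acts in the thoracic region, rose most among them, with 1050 and 974 counts in KO and 348 and 353 in WT. The levels of 22.9 ± 1.09 and 8.19 ± 0.599 CPM differed 2.79-fold (log2 fold change 1.48, SE 0.10, edgeR adjusted p = 2.4e-08). *Hoxa7* ends 1246 bases before *Hoxa9* begins, so that a change of 1.48 and one of 6.35 on the log2 scale were measured in neighbouring genes. *Hoxa6*, its neighbour on the other side and also a factor of the thoracic region, had 372 and 406 counts in KO and 238 and 237 in WT. Its levels were 8.84 ± 1.43 and 5.55 ± 0.333 CPM, without overlap between the groups (log2 fold change 0.67, SE 0.15, edgeR adjusted p = 0.00109).

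*Hoxa5*, a factor of the neck and upper thorax that is needed in the lung, was among the more abundant HoxA genes in both genotypes. It had 507 and 439 counts in KO and 400 and 455 in WT. The levels were 10.7 ± 0.0117 CPM in KO and 8.93 and 11.1 CPM in WT, and the WT libraries lay on either side of the KO libraries (log2 fold change 0.09, SE 0.13, edgeR adjusted p = 0.54). *Hoxa4*, which acts in the cervical region, was of low abundance, with 82 and 73 counts in KO and 45 and 39 in WT. Its levels were 1.75 ± 0.0324 and 0.978 ± 0.0373 CPM (log2 fold change 0.83, SE 0.24, edgeR adjusted p = 0.00702). The groups did not overlap, but the call was lost with DESeq2 (adjusted p = 0.0635) and in edgeR without KO replicate 1 (0.0501) or KO replicate 2 (0.0579).

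*Hoxa2*, which patterns the hindbrain and the second branchial arch, had 573 and 490 counts in KO and 309 and 346 in WT. The levels were 12 ± 0.119 and 7.67 ± 1.09 CPM, with both KO libraries above both WT libraries (log2 fold change 0.64, SE 0.12, edgeR adjusted p = 0.00045). *Hoxa3*, a factor for the thymus, parathyroid and throat cartilages, had 393 and 355 counts in KO and 344 and 395 in WT. Its levels of 8.44 ± 0.243 and 8.66 ± 1.39 CPM overlapped (log2 fold change -0.04, SE 0.13, edgeR adjusted p = 0.83), and the sign turned with scaling by library totals (0.11) or the upper quartile (0.02). The annotated *Hoxa3* gene reaches across *Hoxa4*, *Hoxa5* and *Hoxa6* on the same strand, and a further gene model of the name *Hoxa3* overlaps *Hoxa2*, so reads in shared exons could be divided between these genes in ways the counts do not show. *Hoxa3* to *Hoxa7* also overlap *2700086A05Rik* on the opposite strand, which had 35 and 39 counts in KO and 35 and 30 in WT.

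Together the 10 genes took 114 and 117 CPM in KO and 38.5 and 45.6 CPM in WT. The make-up of this sum differed between the genotypes. *Hoxa9* to *Hoxa13* gave 45.2% of the HoxA counts in KO replicate 1 (95% Wilson interval 43.8 to 46.5) and 43.0% in KO replicate 2 (41.6 to 44.4). In WT they gave 2.26% (1.66 to 3.08) and 2.35% (1.76 to 3.15). *Hoxa4* to *Hoxa7* gave 37.0% and 39.4% in KO and 59.8% and 58.0% in WT, and *Hoxa2* with *Hoxa3* 17.8% and 17.6% against 37.9% and 39.6%. The KO and WT shares did not overlap for any of the 3 groups of genes. The 3 shares make up the whole of the HoxA counts, so a rise in one lowers the others, and they are not separate results. Shares of *Hoxa4* to *Hoxa7* and of *Hoxa2* with *Hoxa3* were smaller in KO although no gene of these groups was called lower. Their median log2 fold changes were 0.75 and 0.30. For *Hoxa9* to *Hoxa13* an exact two-sided permutation test gave p = 0.333, the smallest that 2 libraries against 2 allow. *Hoxa7* alone held a like share in all libraries, 19.3% and 20.3% in KO and 20.2% and 18.9% in WT, although its level was 2.79-fold higher in KO. The share of *Hoxa10* went from 1.57% and 2.19% in WT to 26.5% and 23.8% in KO. The intervals cover counting error only.

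**Figure D3:**
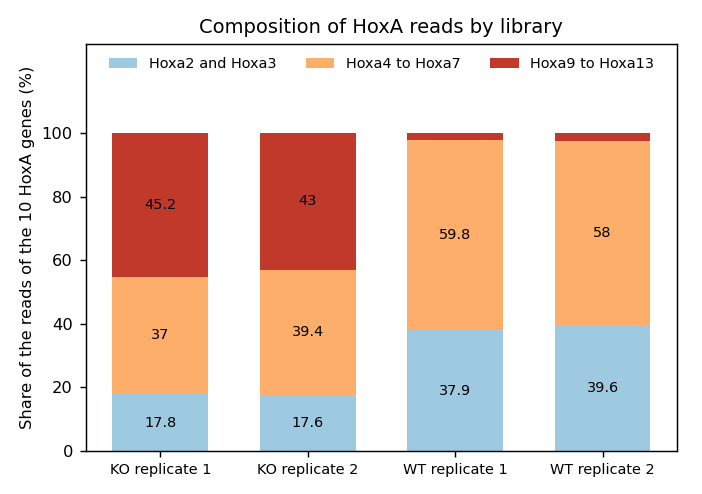
Share of the HoxA counts (percent, bars stacked to 100) given by *Hoxa2* and *Hoxa3*, *Hoxa4* to *Hoxa7* and *Hoxa9* to *Hoxa13* in each of the 4 libraries. The last group fills over 40% of each KO bar and under 3% of each WT bar.

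Levels of different genes were compared per length, as RPKM (read counts divided by the length of the annotated exons and the library size). In WT the order of mean RPKM was *Hoxa5* (5.34), *Hoxa2* (3.17), *Hoxa7* (2.85), *Hoxa6* (2.76), *Hoxa3* (1.32), *Hoxa4* (0.614), *Hoxa10* (0.209), *Hoxa9* (0.0358), *Hoxa11* (0.0128) and *Hoxa13* (0.00453). The 4 genes of the 5′ end were thus the lowest 4 in WT, and the ranges of *Hoxa2*, *Hoxa7* and *Hoxa6* overlapped. In KO it was *Hoxa7* (7.95), *Hoxa10* (7.56), *Hoxa5* (5.68), *Hoxa2* (4.94), *Hoxa6* (4.39), *Hoxa13* (4.24), *Hoxa9* (3.06), *Hoxa3* (1.29), *Hoxa4* (1.1) and *Hoxa11* (0.257). Here *Hoxa10* ranked beside *Hoxa7*, with overlapping ranges, as did *Hoxa13* beside *Hoxa6*, while *Hoxa11* was still the lowest. These levels depend on the length used: with the longest annotated transcript in place of all exons, *Hoxa3* was at 2.73 RPKM in KO and 2.8 in WT, and *Hoxa10* and *Hoxa7* were both at 11.3 in KO with *Hoxa10* ranked first. In all 4 ranks changed in KO and 3 in WT, and the 4 genes of the 5′ end still held the lowest 4 ranks in WT.

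The rows beside the 10 genes were examined in the same fit. At the 3′ end, the row *Gm15051* was lower (-0.45 on the log2 scale, edgeR adjusted p = 0.0173). Within the span lay 6 other rows, of which 3 were higher (background 34.3%), 0 lower (32.5%) and 3 not past the test. The 3 higher were *9930038K12Rik*, *Hoxa11as* (log2 fold change 3.59, SE 0.51, edgeR adjusted p = 3.3e-05) and *5730446D14Rik*, at the other end beside *Hoxa2* (289 and 251 counts in KO, 112 and 177 in WT; 0.84, edgeR adjusted p = 0.00274). *Gm15050* (-0.22), *2700086A05Rik* (0.14) and *5730596B20Rik* (0.17), all overlapping *Hoxa3* on the opposite strand, did not pass.

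Past the 5′ end, *Gm15053*, which starts 1895 bases beyond *Hoxa13*, had 20 and 17 counts in KO and 0 in both WT libraries, at least 11.9-fold higher against a floor of 3 counts over the WT group. *5730457N03Rik* had 15 and 6 counts in KO and 0 in WT (at least 6.76-fold), and the homeobox gene *Evx1* 1 and 4 in KO and 0 in WT, and neither was tested. *Hibadh*, an enzyme of valine breakdown 285 kb beyond *Hoxa13*, had 2281 and 2048 counts in KO and 2205 and 2056 in WT (log2 fold change -0.03, edgeR adjusted p = 0.761), and *Tax1bp1* next to it had 0.06 (0.441). The next gene tested, *Jazf1*, was higher, with 9.13 and 9.51 CPM in KO and 3.08 and 3.52 in WT (1.5, SE 0.14, edgeR adjusted p = 6.3e-07). On the other side *Nfe2l3* (1.5) and *Skap2* (0.60) were higher too, and these 3 genes were chosen for mention after their values were seen. Of the 11 genes tested outside the span but within 1 Mb of it, 5 were higher, 3 lower and 3 not past. Over all genes tested, 34.3% were higher and 32.5% lower. The strongest fall was in *Snx10*, a sorting nexin, with 278 and 243 counts in KO and 1217 and 1031 in WT (-2.16, SE 0.10, edgeR adjusted p = 5.4e-10).

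The other *Hox* clusters were compared by the same test. Of the 10 HoxB rows 8 were tested, of which 2 were higher, 3 lower (1 with scaling by library totals) and 3 not past, with a median log2 fold change of -0.06. Over all genes tested, 34.3% were higher and 32.5% lower. *Hoxb2* had the largest difference among the HoxB genes tested, -0.75 (edgeR adjusted p = 1.5e-05), opposite in sign to its HoxA paralog. *Hoxb13*, the paralog of *Hoxa13*, was not tested, with 11 and 3 counts in KO and 0 in both WT libraries. *Hoxb9*, the most abundant HoxB gene, had 2838 and 2350 counts in KO and 2943 and 2632 in WT (-0.15, edgeR adjusted p = 0.052), beside the 6.35 of *Hoxa9*. All 9 HoxC genes were tested, from low counts in WT, and all 9 were higher (background 34.3%). All but *Hoxc9* had fewer than 10 counts in both WT libraries and passed the filter through their KO libraries only. A call of lower was hardly possible for these genes, so their count in 1 direction is no separate result. *Hoxc13* had 377 and 366 counts in KO and 4 and 0 in WT (7.41), and *Hoxc9* 127 and 97 in KO and 14 and 12 in WT (3.04). For 4 HoxC genes both WT libraries were at 0, so that the HoxC median log2 fold change was 6.88 as fitted and 4.17 with these genes at their lower bounds. Of the HoxD cluster 2 rows were analysed, *Hoxd8* and *Hoxd11*, each under 10 counts in every library.

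Because paralogs are counted in the same libraries, the ratio of a HoxA to a HoxB count does not depend on the scaling of the libraries. The *Hoxa9* to *Hoxb9* ratio was 0.164 and 0.203 in KO and 0.00306 and 0.00076 in WT. The *Hoxa7* to *Hoxb7* ratio was 1.08 and 1.17 in KO and 0.362 and 0.475 in WT, and the *Hoxa2* to *Hoxb2* ratio 1.04 and 0.877 against 0.323 and 0.402. In each of these pairs the ratio was higher in both KO libraries. The same held for *Hoxa4* to *Hoxb4* (0.152 and 0.155 against 0.072 and 0.0604) and *Hoxa6* to *Hoxb6* (0.373 and 0.404 against 0.195 and 0.209). *Hoxa5* to *Hoxb5* (1.03 and 0.916 against 1.3 and 1.42) and *Hoxa3* to *Hoxb3* (0.621 and 0.508 against 0.669 and 0.744) lay lower in both KO libraries. A ratio moves with either gene. *Hoxb2* (-0.75), *Hoxb4* (-0.38) and *Hoxb6* (-0.28) were lower in KO, and *Hoxb5* (0.58) and *Hoxb3* (0.31) were higher. Among all single genes tested, both KO libraries lay above both WT libraries in 43.0% and below them in 39.8%. Each of the 7 pairs had an exact two-sided permutation p of 0.333, the smallest that 2 against 2 allows.

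**Figure D4:**
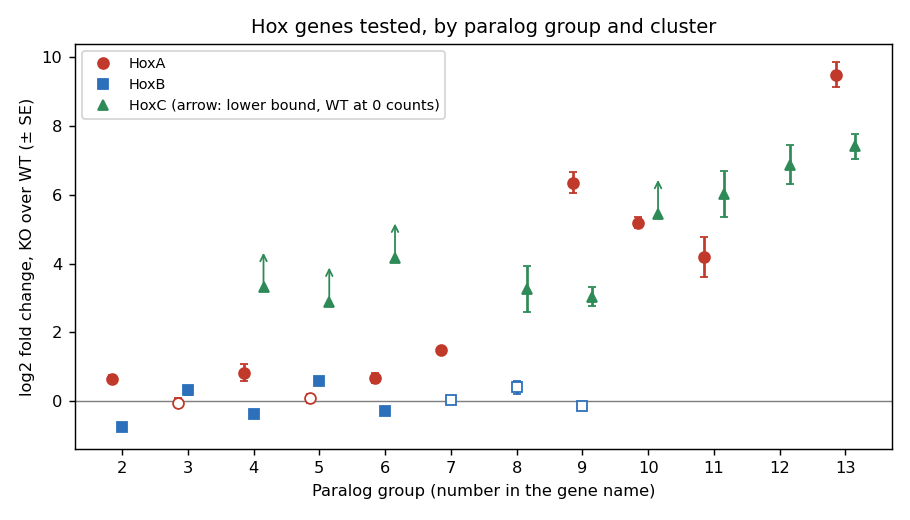
Log2 fold change (KO over WT, ± SE) of the tested *Hox* genes against paralog group, with HoxA as circles, HoxB as squares and HoxC as triangles, open symbols for genes not past an adjusted p of 0.05 and arrows for lower bounds of genes at 0 counts in WT. Values of the HoxB genes tested lie between -0.75 and 0.58, whereas the HoxA genes of groups 9 to 13 lie between 4.19 and 9.49. *Hoxb13*, not tested, is not shown. The value of *Hoxa13* rests on 1 WT count, which its SE does not show.

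The partners and regulators of HOX proteins were expressed in both genotypes. Of the 11 TALE homeodomain genes, whose products bind DNA together with HOX proteins, 5 were higher, 3 lower and 3 not past, with a median log2 fold change of 0.25. *Pknox2* (1.89) and *Meis3* (1.14) rose, and *Tgif2* (-0.82), *Meis2* (-0.60) and *Pknox1* (-0.18) fell. Of 30 Polycomb group genes 20 were higher, 6 lower and 4 not past (median 0.29). *Ezh1*, a histone H3 methyltransferase of this group, rose by 1.13 on the log2 scale, and *Cbx6* (1.08), *Cbx7* (0.90) and *Jarid2* (0.86) rose too, whereas *Yaf2* (-0.77), *Pcgf5* (-0.71), *Eed* (-0.69) and *Phc2* (-0.48) fell. Members of the complexes that keep *Hox* genes silent thus moved in both directions, with more of them higher than lower (background 34.3% and 32.5%).

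Among 21 genes of MLL complexes and other activators of *Hox* chromatin, 7 were higher, 6 lower and 8 not past (median -0.02). *Psip1*, a chromatin partner of MLL, had a log2 fold change of 0.70 and the H3K27 demethylase *Kdm6a* 0.56, while *Mllt4* (-0.62), *Ash2l* (-0.54) and *Wdr5* (-0.45) fell. The 11 insulator and cohesin genes held 5 higher and 5 lower (median -0.14), with *Smc3* at 0.55, *Wapal* at -0.77 and *Ctcf*, whose product binds boundaries within *Hox* clusters, at -0.37. Of the 16 genes for upstream inducers of *Hox* expression, 12 were tested, and 7 were higher, 2 lower (0 with library totals) and 3 not past (median 0.28). *Egr2*, a hindbrain factor that activates anterior *Hox* genes, rose by 2.22 on the log2 scale, and the retinoic acid-degrading enzyme *Cyp26b1* rose by 0.68. The shares of higher and lower genes over all genes tested were 34.3% and 32.5%.

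Genes that pattern the limb, in which *Hoxa9* to *Hoxa13* act, showed large differences in both directions. Of 24 such genes 19 were tested, with 11 higher (background 34.3%), 5 lower (32.5%) and 3 not past. Their median log2 fold change was 0.86, against 0.02 over all genes tested. *Lmx1b*, the dorsal limb factor, had 188 and 172 counts in KO and 1 and 0 in WT. *Msx1* had 762 and 669 in KO and 39 and 29 in WT (4.34), and *Msx2* (3.71) and *Lhx2* (3.42) rose as well. *Prrx1*, a marker of limb bud mesenchyme, was the most abundant, at 523 CPM in KO and 139 in WT (1.92). *Grem1*, the BMP antagonist of the limb bud, fell from 3478 and 3190 counts in WT to 327 and 235 in KO (-3.62), and *Lhx9* (-2.3), *Wnt5a* (-1.30) and *Fgf10* (-1.17) also fell. The forelimb factor *Tbx5* had 2 and 6 counts in KO and 1 and 3 in WT and the hindlimb factor *Pitx1* had 0 and 1 in KO and 0 in both WT libraries, and neither was tested.

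Genes reported elsewhere as targets of HOXA10, HOXA11 or HOXA13 were also counted. Of 22 genes 17 were tested, with 11 higher (background 34.3%), 3 lower (32.5%) and 3 not past. Their median was 0.46, against 0.02 over all genes tested. *Emx2*, a factor of the genital tract, had a log2 fold change of 3.22, and *Wnt4* (1.72), *Sfrp1* (1.1) and the ephrin receptor *Epha7* (0.96) were higher too. The prostaglandin synthase *Ptgs2* fell from 23667 and 18016 counts in WT to 3323 and 2593 in KO (-2.87), and *Enpp2* (-1.51) and *Epha4* (-0.80) fell.

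**Figure D5:**
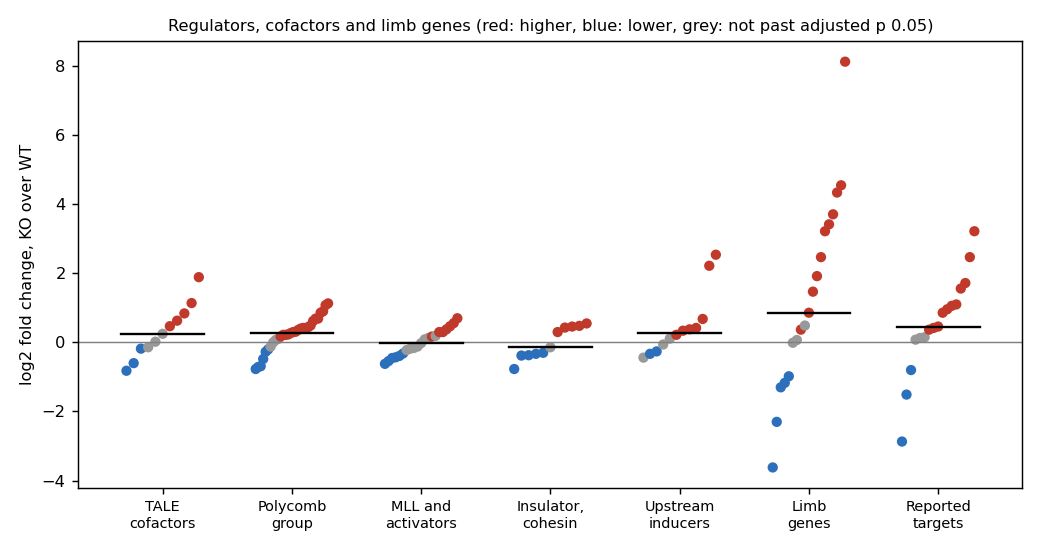
Log2 fold change (KO over WT) of the tested genes of each list, 1 point per gene in rising order and a bar at each list's median, with genes higher in KO in red, lower in blue and not past an adjusted p of 0.05 in grey. Each list spreads to both sides of 0, and the limb genes, with a median of 0.86, spread furthest; their uppermost point, *Lmx1b*, is a fitted value that rests on 1 WT count.

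The cell type of the cultures was checked with marker genes. All 12 fibroblast and mesenchyme markers were detected in every library, with summed levels of 13509 and 14677 CPM in KO and 25269 and 22756 in WT. In KO 7 of them were lower, among them *S100a4* (-2.28), *Col1a1* (-1.32) and *Col3a1* (-1.31), and 1 was higher (3 with library totals). For these and the other markers the background was 32.5% lower and 34.3% higher. Cartilage markers were also lower in KO, 6 of 8 with 1 higher, at 486 and 532 CPM in KO and 1308 and 1261 in WT, including *Col2a1* (-1.93) and *Acan* (-1.34). Neural and glial markers summed to 144 and 140 CPM in KO and 460 and 378 in WT, with 3 of 5 lower and 1 higher (2 with library totals). Muscle markers summed to 2.25 and 2.84 CPM in KO and 8.77 and 6.37 in WT, with 1 of 2 lower.

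Markers of other cell types were scarce in both genotypes. Endothelial markers summed to 12.5 and 12.4 CPM in KO and 13.8 and 12.8 in WT, with 0 of 4 tested genes past the test in edgeR, and 0 at an unadjusted p under 0.05 (lowest 0.0998, *Tek*). Macrophage and blood markers summed to 6 and 6.21 CPM in KO and 4.2 and 3.44 in WT, with 1 of 3 tested higher and 1 lower. The higher gene was *Csf1r* (1.74), with 4.12 and 4.29 CPM in KO and 1.36 and 1.15 in WT. The lower gene was *Ptprc* (-4.80), with 0 and 2 counts in KO and 40 and 21 in WT. Epithelial markers summed to 3.43 and 3.08 CPM in KO and 0.938 and 1.39 in WT, with 5 of 8 under 10 counts in every library. *Cdh1* was higher (3.64) and alone gave 2.99 and 2.6 CPM of the KO sums. *Krt8*, not tested, went the other way, with 2 and 0 counts in KO and 6 and 18 in WT. *Krt14*, *Krt18* and *Cldn4* also had fewer counts in KO, *Krt5* had more, and *Epcam* did not pass. The part of these marker differences in the HoxA differences was not tested.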

How the data were processed

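The 4 libraries (2 KO, 2 WT) were made by the authors from ribosomal RNA-depleted total RNA with a stranded kit and sequenced as 50-base single reads. Per the labels and methods, base calling used CASAVA 1.8.2, reads were aligned to mm9 with TopHat2 and Bowtie, and the deposited values are raw counts per gene from HTSeq 0.5.4p3 on Ensembl release 67. For HTSeq's strand and overlap settings, the values are not given in the sources used here. Besides these counts, the table holds 5 other per-sample columns and the authors' log2 ratios and p-values for their own comparison, which were not used. Gene positions and lengths come from an mm9 annotation holding 23393 of the 23537 identifiers.

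In edgeR 4.0.16 (R 4.3.3), filterByExpr (minimum count 10) left 15538 genes. TMM factors scaled the libraries, a quasi-likelihood model with a single genotype term was fitted, and p-values were adjusted over these genes by the Benjamini-Hochberg procedure. CPM and RPKM use TMM-scaled library sizes. The standard error is the size of the log2 fold change over the square root of F. Alternatives were other scalings, filters, DESeq2 1.42.0, limma-voom (limma 3.58.1), a replicate block and leaving out each library. With 1 library left in a group, it is assumed to vary like the other group.

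Named were all 10 genes, every row in the span, the nearest and most changed genes within 1 Mb, and of each list up to 4 genes per direction with the largest change among those past an adjusted p of 0.05 with a mean of at least 1 CPM, plus its most abundant gene. Members and lists were chosen with earlier results of these data known. Some genes that this rule names are not reported here.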

Additional observations from a re-analysis of the deposited data

How the results depend on the processing

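Across 12 alternatives the HoxA genes gave 117 fitted log2 fold changes, of which 110 kept their direction and their side of an adjusted p of 0.05, 3 (all of *Hoxa4*) lost the call and 4 turned sign. With at least 10 counts required in every library, 5 genes were higher in place of 8, and 1 in place of 4 past the stricter limits, because *Hoxa9*, *Hoxa11* and *Hoxa13* were then not tested. The sign of *Hoxa3* turned with library totals (0.11) and the upper quartile (0.02) and without WT replicate 2, its range when each library was left out being -0.20 to 0.10, and that of *Hoxa5* without WT replicate 1 (range -0.06 to 0.22). Leaving out each library in turn gave 7 to 8 genes higher, 4 past the stricter limits each time and 0 lower. DESeq2 called 7. Library totals moved the median of all genes from 0.02 to 0.17.

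Across genes, samples with the same replicate number did not deviate together (correlation -0.0419). This single value gave no sign that the numbers pair the samples, but it cannot exclude pairing. With the replicate block, 8 genes were higher, 4 passed the stricter limits and 0 were lower, and no call changed.

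With 2 libraries per group, shares and paralog ratios cannot reach an exact p under 0.333, and WT levels of *Hoxa9*, *Hoxa11* and *Hoxa13* rest on 0 to 9 counts per library.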
